A study of Homo sapiens with 10 samples.

Results

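Immediate early genes are switched on by signals such as growth factors and stress without prior protein synthesis, and most of their mRNAs are short-lived. Many of their products are AP-1 subunits, bZIP proteins that bind DNA as dimers of FOS, JUN or ATF family members. Others are zinc finger transcription factors or phosphatases that switch the inducing kinases off again. The genes are compact, and their 3′ UTRs often hold AU-rich elements, sequences that bind proteins such as ZFP36 and shorten mRNA life. Cleavage and polyadenylation at the end of a gene usually takes place a short distance downstream of a hexamer, AATAAA or a close relative of it. The genes examined were FOS, FOSB, JUN, JUNB, JUND, ATF3, MYC, EGR1, IER2 and DUSP1, taken as a list of 10 names, and all 10 were found in GENCODE 44. Of the 178837 peaks of the list, 20 had their summit in the body of one of these genes or up to 600 bp past its 3′ end.

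The peaks come from poly(A) 3′-seq of IMR-32, a human neuroblastoma cell line, a method in which each read starts at the poly(A) tail of an mRNA. Of the 10 libraries, 4 carried pLKO.1 lentiviral shRNAs against CDK12 (sh22 and sh98, 2 libraries each), 4 carried shRNAs against CDK13 (sh701 and sh704, 2 libraries each) and 2 the control shRNA against GFP, and all cells were selected with puromycin for 2 days. CDK12 and CDK13 are kinases of the C-terminal domain of RNA polymerase II, and the study asked whether their loss causes premature cleavage and polyadenylation. The single processed file used here is a list of peaks called on the merged reads of all the libraries, which had been made in different batches and brought down to the size of the smallest one.

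The list holds no strand and no value per library. No comparison of shCDK12, shCDK13 and shGFP, no replicate error and no check of the knockdowns could therefore be had from it, the total count per library is unknown, and every value below describes the pool of 10 libraries, 8 of which carried an shRNA against a kinase. The height of a peak is its pileup, the number of reads extended to 100 bp that cover the summit, recovered from the deposited fold and p-value. A pileup counts distinct read positions and is a compressed measure of abundance, with a highest value of 200 in the list, a median of 9 and a 90th percentile of 21. In a pool, fewer cells that express a gene and less RNA per cell cannot be told apart. A peak was called terminal when its summit lay from 200 bp before to 600 bp past an annotated transcript end, and otherwise exonic or intronic. Of 13 markers of adrenergic neuroblastoma, all 13 had a terminal peak, against 68.7% of all protein-coding genes. Their median height was 46 (16 to 114) against 23 over all detected genes. ISL1 (16), DBH (17), TH (21) and DDC (21) lay below 23 and the others above it. Of 10 markers of other cell types, COL1A1 (height 14), EPCAM (13) and ALB (3) had a terminal peak and the other 7 had no peak. CDK12 and CDK13 themselves had terminal peaks of 22 and 34.

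The sequences before the ends of 9 of the genes are shown because they hold the hexamers set beside the peaks at those ends below. Each line gives, 5′ to 3′ on the strand of the gene and in GRCh38, 30 bases with a poly(A) signal hexamer from the 100 bp before the canonical end in capitals (AATAAA where present, else ATTAAA, else the nearest other).
FOS, chr14:75282201-75282230, plus strand: tgtcAATAAAagcatttaagttgaatgcga
FOSB, chr19:45475153-45475182, plus strand: tgccAATAAAaagctcttaaaaacgcattc
JUN, chr1:58780787-58780816, minus strand: tcacAATAAAtgtattcaaataccaataac
JUNB, chr19:12793284-12793313, plus strand: tttaAGTAAAaaaaaaattggttctttatt
JUND, chr19:18279754-18279783, minus strand: tttcAGTAAAgtctcgttacgccagctcgg
ATF3, chr1:212620743-212620772, plus strand: gaatAATAAAtattggaaccaagacatggt
EGR1, chr5:138469291-138469320, plus strand: cgaaAATAAAgtagctgcgattgggtatgt
IER2, chr19:13154881-13154910, plus strand: ggaaAATAAAaaccatttgagtaaaaaagc
DUSP1, chr5:172768096-172768125, minus strand: atggAATAAAttatggcatttctattgaaa
The canonical AATAAA stood before the end of all of these but JUNB and JUND, which carry AGTAAA 27 and 85 bp before it. FOSB has the signal although no peak was listed at its end.

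A second set of sequences surrounds peaks that do not lie at the canonical end. In the first 5, the capitals mark the 10 bases just downstream of the 3′ edge of the peak, where a run of A in the RNA can be primed by oligo(dT) without a poly(A) tail. In the last, the capitals mark the hexamer upstream of the 3′ edge of the highest peak of all 10 genes. It lies within that peak, downstream of the summit.
FOS, peak in exon 3, chr14:75280558-75280587, plus strand: agttatctccagaagAAGAAGAGAAaagga
ATF3, peak in exon 3, chr1:212618182-212618211, plus strand: cagctgcaaagtgccGAAACAAGAAgaagg
JUN, peak at the stop codon, chr1:58782028-58782057, minus strand: ctgaggggcaacgaaGAAAAAAAATaacac
FOS, peak past the gene, chr14:75284175-75284204, plus strand: aaaaccctatctcaaAAAAAAAAAAaaaaa
DUSP1, peak past the gene, chr5:172767210-172767239, minus strand: aaatacattggcaaaAAAAAAAAAAaagaa
JUN, peak within the 3′ UTR, chr1:58781220-58781249, minus strand: gtcgATTAAAatcactctcagtgcttctta

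Terminal peaks were listed for 8 of the 10 immediate early genes, against 68.7% of all 20033 protein-coding genes and 55.3% of the 3032 genes between 1830 and 7518 bp long, the range of the 9 short members. FOSB and MYC had none. The peaks of JUNB and DUSP1 lie within genes of the other strand and may belong to either, and 6 genes remained when such peaks were left out, an alternative added after seeing the data. The 68.7% and 55.3% keep such peaks and were not recomputed without them. The heights of the 8 ran from 16 at FOS through 19 at ATF3, 22 at DUSP1, 34 at JUN, 37 at JUNB, 43 at IER2 and 44 at JUND to 51 at EGR1. Their median was 35.5, with 23 for all genes with a terminal peak and 22 for those in the same range of length. FOS, ATF3 and DUSP1 thus stood below the median of all detected genes and JUN, JUNB, IER2, JUND and EGR1 above it. JUND changes side with the annotation: without transcript models of incomplete 3′ end, or with canonical transcripts alone, its highest terminal peak is 16. Without replicates, neighbours in this order, such as IER2 and JUND, cannot be told apart.

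**Figure D1:**
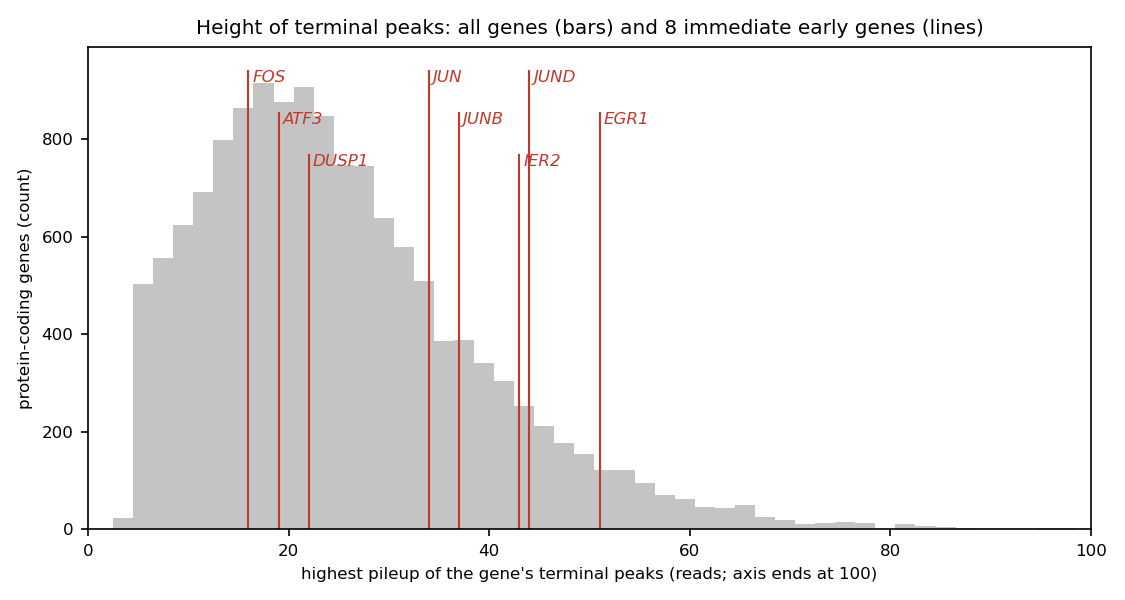
Number of protein-coding genes (y axis, bars of 2 reads) by the highest pileup among their terminal peaks (x axis, reads, drawn to 100), with a labelled line for each of the 8 immediate early genes that have a terminal peak. FOS, ATF3 and DUSP1 lie at or left of the highest part of the histogram at 16 to 22, and JUN, JUNB, IER2, JUND and EGR1 lie on its right slope at 34 to 51.

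The rank of these genes depends on how height is measured. The median percentile of the 8 genes among all detected genes was 79.2 for the highest terminal pileup, and it ranged from 51.0 for the summed terminal pileups to 80.0 against genes of similar length over the alternatives tried.

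FOS encodes the founding member of the FOS family, which dimerises with JUN proteins. The gene has 4 exons on chromosome 14 (75278826 to 75282230, plus strand) and spans 3405 bp. Its main peak, of 107 bp with the summit at 75282156, had a pileup of 16, 9.29-fold over the local background, with a −log10 q-value of 13.2. Here and below, a fold is the pileup over the local background after the same constant is added to both. The 3′ edge of this peak lay 1 bp before the annotated end and 24 bp downstream of the start of AATAAA, and 3 of the next 10 bases were A. Of the detected genes 26.3% were lower, and of the 200 detected genes of nearest length 32.5%.

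A smaller FOS peak, of 100 bp with the summit at 75280562, had a pileup of 9 (5.81-fold, −log10 q 5.78). It covered the last 87 bases of intron 2 and the first 13 of exon 3, with its edge at codon 136 of 380, in the exon that encodes the basic, DNA-binding region. No listed hexamer stood within 100 bp upstream, and 7 of the 10 bases downstream were A. The coding stretch is the one printed above. It counted as terminal only because short transcript models end nearby, and the nearest annotated complete end lay 198 bp before its edge. Reads were extended along the genome, so the list does not tell whether the RNA covered here was spliced.

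A further peak lay outside the counted window, 1914 bp past the 3′ end of FOS, with a pileup of 9 and a −log10 q-value of 5.30. All 10 bases downstream of its edge were A and no hexamer stood upstream.

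FOSB, a FOS paralogue with the same dimerisation partners, has 4 exons on chromosome 19 (45467995 to 45475179, plus strand, 7185 bp). Its single peak had its summit at 45468174 in the 5′ UTR, 179 bp from the start of the gene, with a pileup of 5 (4.94-fold, −log10 q 4.58), and only 1.92% of chromosomal peaks were lower. FOSB lies inside ERCC1, a gene of the other strand with 5 peaks in its body, the highest of 42, so this peak may belong to either gene. Read on the strand of ERCC1, where the 3′ edge is the opposite end of the peak, AATAAA stood 83 bp upstream and 6 of the 10 downstream bases were A. Of the 200 protein-coding genes of nearest length, 56.0% had a terminal peak, which FOSB did not.

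JUN, the founding member of the other AP-1 family, is a gene without introns on chromosome 1 (58776845 to 58784048, minus strand, 7204 bp in the annotation). Its canonical transcript ends about 4 kb before the end of the gene body, which is set by a longer transcript model. All 3 peaks lay at or before the canonical end. The peak at that end, with its summit at 58780861, was 286 bp wide and had a pileup of 34 (6.96-fold, −log10 q 17.2), with its edge 5 bp past the end and AATAAA 26 bp upstream.

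The highest peak of JUN was not the one at its end. A peak of 444 bp with its summit at 58781399, within the 3′ UTR, reached a pileup of 64 (12.8-fold, −log10 q 48.2), which 99.9% of chromosomal peaks did not reach. Its edge lay 410 bp before the canonical end, where no transcript end is annotated, with ATTAAA 44 bp upstream and 1 A in the 10 bases downstream. Both the edge and this hexamer lay farther downstream of the summit than the 100 bp of an extended read. They therefore do not place the ends of the reads that make up the height of 64. Taken over peaks of any class, the height of 64 placed JUN above 98.2% of genes with a peak, whereas its terminal peak alone was above 76.9% of detected genes.

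The remaining peak of JUN straddled the stop codon, with 68 bases in the coding sequence and 35 in the 3′ UTR. Its pileup was 23 (4.79-fold, −log10 q 8.25), no hexamer stood upstream, and 8 of the 10 downstream bases were A. JUN thus had 3 peaks, and 33.5% of the 200 detected genes of similar length had at least as many.

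JUNB, a JUN paralogue and like it free of introns, lies on chromosome 19 (12791486 to 12793315, plus strand, 1830 bp). Its single peak, 335 bp wide with the summit at 12793220, had a pileup of 37 (11.6-fold, −log10 q 28.2), and 81.4% of detected genes were lower. The summit lay 95 bp before the annotated end but the edge 157 bp past it, so the AGTAAA printed above, 27 bp before the end, fell outside the window searched upstream of the edge. No A followed the edge within 10 bases. The gene lies inside HOOK2, of the other strand, which had 29 peaks of at most 39, so the peak may belong to either gene. Read on the strand of HOOK2, AATAAA stood 97 bp upstream of the opposite end of the peak and 2 of the 10 bases past it were A.

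JUND, the JUN family member usually found at steady levels, also has no intron and lies on chromosome 19 (18279694 to 18281622, minus strand, 1929 bp). Its main peak, 316 bp wide with the summit at 18279980, had a pileup of 44 (15.7-fold, −log10 q 40.3), with 89.9% of detected genes lower. The edge lay 58 bp before the annotated end and 27 bp past the start of AGTAAA, with no A in the next 10 bases. Both the edge and this hexamer lay farther downstream of the summit than the 100 bp of an extended read. They therefore do not place the ends of the reads that make up the height of 44. The summit was within the terminal window only through a transcript model with an incomplete 3′ end. A second peak lay 290 bp past the annotated end, with its summit at 18279404, a pileup of 16 (5.94-fold, −log10 q 8.02), TATAAA 20 bp upstream and 5 A downstream.

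ATF3, a stress-induced bZIP factor that pairs with JUN proteins, is the one long gene of the set, with 55444 bp on chromosome 1 (212565334 to 212620777, plus strand), most of it upstream of the canonical transcript. It had 7 peaks, and 76.5% of the 200 detected genes of similar length had at least as many. The terminal peak, with its summit at 212620718, had a pileup of 19 (12.4-fold, −log10 q 19.4), its edge at the base of the canonical end and AATAAA 28 bp upstream.

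All 5 intronic peaks of the 10 genes were in ATF3, where similar-length genes held 6.12 on average and 90.5% held at least 1. Their pileups were 6, 8, 8, 8 and 11 with −log10 q-values from 4.60 to 8.87. The first 2, with summits at 212571740 and 212590376, lay upstream of the canonical start, and the other 3, at 212609882, 212610622 and 212611665, in intron 1 of the canonical transcript. None had A-rich sequence downstream on the strand of ATF3, with 1, 4, 1, 1 and 5 A in 10 bases, and only the second had a hexamer upstream, AATAAA at 30 bp. On the other strand, where the edge is the opposite end of the peak, all 10 bases downstream of the first were A, and the list does not give the strand.

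An exonic ATF3 peak resembled the internal peak of FOS. With its summit at 212618132 and a pileup of 16 (9.88-fold, −log10 q 14.1), it covered the last 87 bases of intron 2 and the first 70 of exon 3. Its edge stood at codon 104 of 181, also in the exon with the basic region, with AAGAAA 28 bp upstream and 7 A in the 10 bases downstream. In both genes the edge met an A-rich coding stretch, as the printed sequences show.

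EGR1, a zinc finger transcription factor induced through serum response factor, has 2 exons on chromosome 5 (138465479 to 138469303, plus strand, 3825 bp). Its only peak, 319 bp wide with the summit at 138469216, had a pileup of 51 (23.5-fold, −log10 q 58.8), the highest terminal peak, fold and q-value of the 10 genes, and 94.7% of detected genes were lower. The edge lay 16 bp past the annotated end and 24 bp past the start of AATAAA, a signal that begins only 8 bp before that end. No A followed within 10 bases.

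IER2, an immediate early gene whose product enters the nucleus, has 2 exons on chromosome 19 (13150411 to 13154911, plus strand, 4501 bp) and 2 peaks in its last exon. The distal one, with its summit at 13154833, had a pileup of 43 (16.7-fold, −log10 q 41.3), its edge 2 bp past the canonical end and AATAAA 28 bp upstream. The proximal one, with its summit at 13154221, had a pileup of 27 (10.5-fold, −log10 q 20.5) and ended 592 bp before the canonical end, 70 bp past another annotated end. No hexamer stood upstream of it and 3 of the next 10 bases were A.

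DUSP1, the phosphatase that inactivates the MAP kinases which induce these genes, has 4 exons on chromosome 5 (172768096 to 172771195, minus strand, 3100 bp). Its terminal peak, with the summit at 172768177, had a pileup of 22 (12.9-fold, −log10 q 21.6), with the edge 1 bp past the end, AATAAA 26 bp upstream and 2 A downstream. A further peak lay outside the counted window, 817 bp past the end, with a pileup of 12 (7.43-fold, −log10 q 8.92), AATACA 13 bp upstream and 10 A in the 10 bases after its edge. A lncRNA of the other strand, ENSG00000253736, spans both peaks, which may belong to either gene.

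MYC, the growth-promoting bHLH factor, was the one gene of the 10 with no peak at all. It spans 7518 bp (chromosome 8, 127735434 to 127742951, plus strand), and the nearest summits lay 318 kb before and 34.5 kb past it. Of the 200 protein-coding genes of nearest length, 41.0% had no peak either. Its neighbour PVT1, a lncRNA, held 64 peaks of at most 39. MYCN, the paralogue that is amplified in IMR-32, had 4 peaks in 6458 bp, 1 of them terminal with a height of 73, above 99.5% of detected genes. A pooled list does not tell whether single libraries held MYC reads below the limit for calling a peak.

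**Figure D2:**
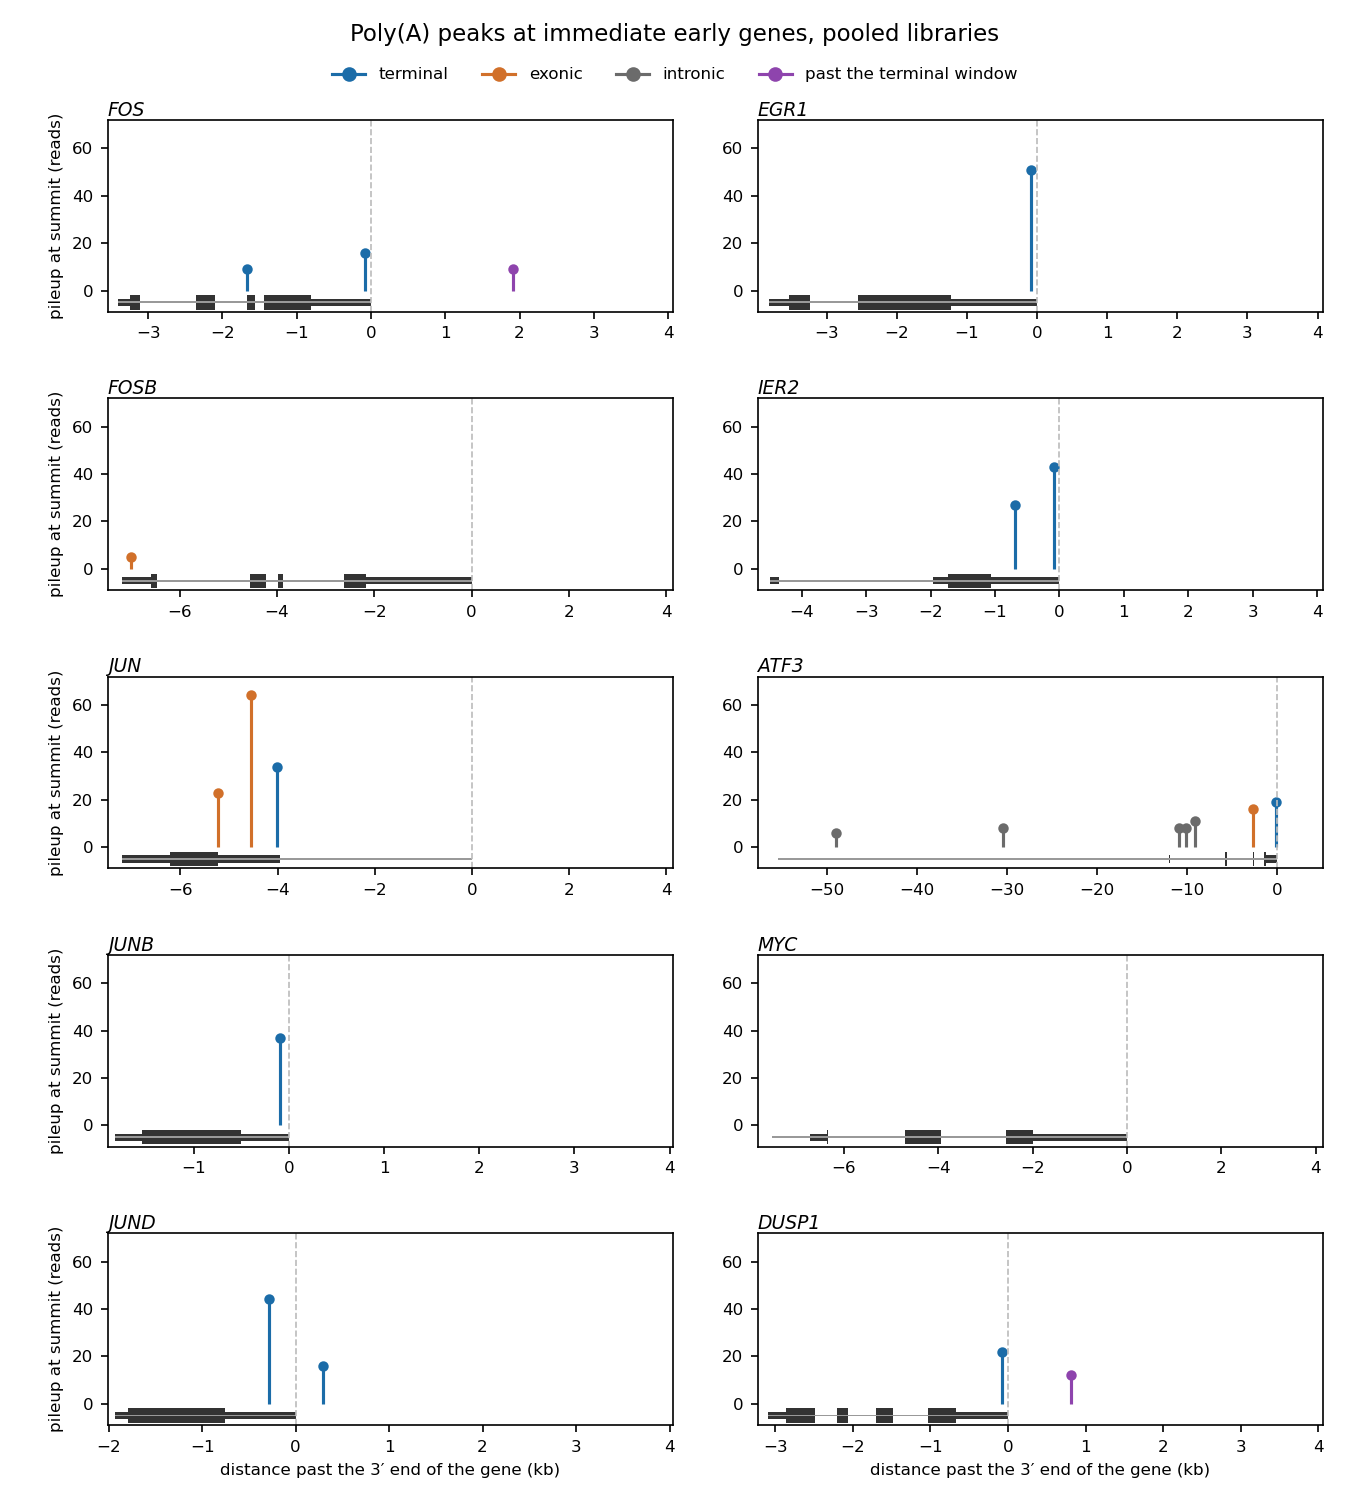
Peaks of the 10 immediate early genes by the distance of the summit past the 3′ end of the gene (x axis, kb, negative within the gene) and the pileup at the summit (y axis, reads, pool of all libraries). The bars below each axis show exons of the canonical transcript (thicker where coding) on the gene body, and colours give the class of the peak. Most short genes carry their peaks at the right end, JUN has its highest peak of 64 before its canonical end, ATF3 has low peaks of 6 to 11 along its introns, and MYC is empty.

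Taken over the 10 genes, 11 of the 20 peaks were terminal, or 55.0% (95% Wilson interval 34.2% to 74.2%, counting error only, and peaks of 1 gene are not independent), against 19.3% of the 148735 peaks of all protein-coding genes. The 4 exonic peaks were those of FOSB, ATF3 and JUN described above, the last with 2. Intronic peaks made up 5 of 20, against 70.2% of all, and none lay in the 9 short genes, which held 13 peaks. In the length range of these 9 genes, 15% of genes with a terminal peak had an intronic one, and over all lengths 75.4%. The 19.3% covers genes of all lengths, and the terminal share of peaks in genes of this length range was not computed. The canonical transcripts of the 9 short genes have at most 3 introns, and those of JUN, JUNB and JUND have none.

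FOS (2), JUN (3) and JUND (2) exceeded the median of their 200 similar-length detected genes, which was 1, 2 and 1. Of those genes, 49.5% had at least as many peaks as FOS, 33.5% as JUN and 36% as JUND. JUNB, IER2 and DUSP1 equalled it, and EGR1 (1 against 2) and ATF3 (7 against 10) were below it. These genes were taken from those with a terminal peak, so FOSB and MYC, which have none, are not set against them. With peaks of a −log10 q of at least 20, IER2 alone exceeded the median, and by spliced length ATF3 alone. Against all protein-coding genes of similar length, with or without a peak, FOS, JUN, JUNB, JUND and IER2 did.

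**Figure D3:**
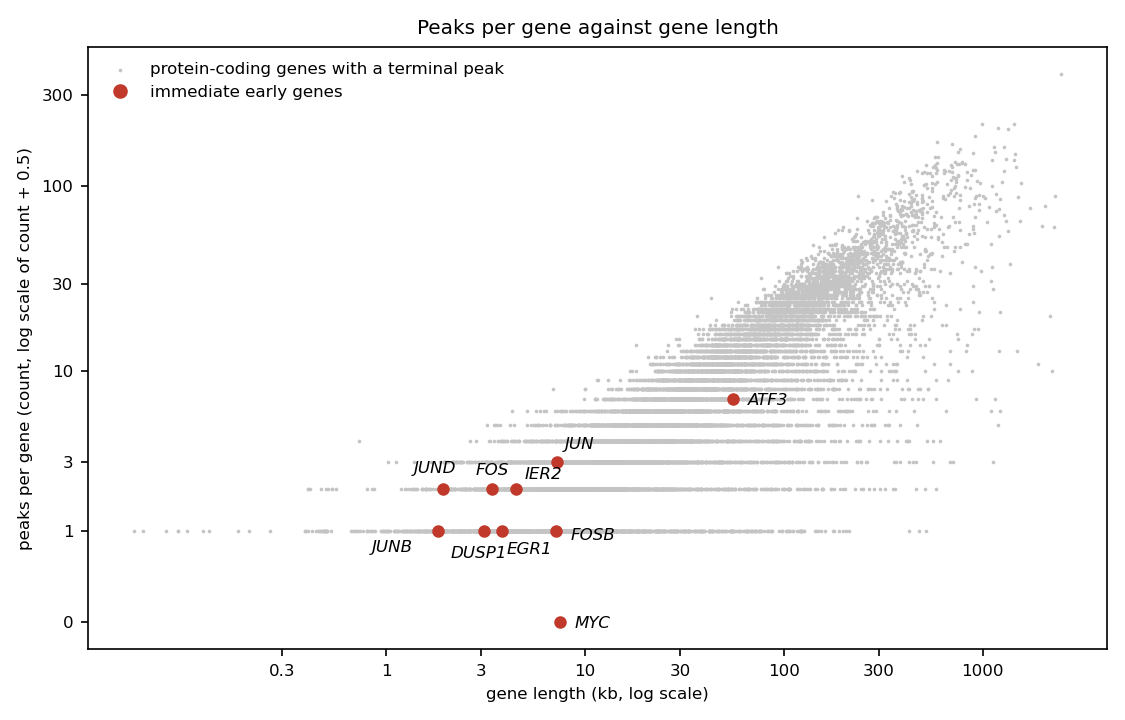
Peaks per gene (y axis, log scale of the count plus 0.5) against gene length (x axis, kb, log scale) for protein-coding genes with a terminal peak (grey) and for the 10 immediate early genes (red, including FOSB and MYC, which have no terminal peak). The short genes with peaks lie at 1 to 3 among other genes of their length, MYC lies at 0, and ATF3 lies at 7 where its neighbours have a median of 10.

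In 5 of the 8 genes, FOS, JUN, IER2, ATF3 and DUSP1, the highest terminal peak ended within 5 bp of an annotated end, against 48.6% of the 13761 genes with a terminal peak. In EGR1 it ended 16 bp past, in JUND 58 bp before and in JUNB 157 bp past the nearest one. Of the 11 terminal peaks, 6 had AATAAA upstream, beginning 24 to 28 bp before the edge (median 26). Over the 10628 terminal peaks of all genes with AATAAA the median was 25 bp, with quartiles of 21 and 32.

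Any of the 12 hexamers searched stood within 100 bp upstream in 11 of the 20 peaks, against 55.8% of all 132963 peaks that lie in genes of 1 strand only. The hexamers were AATAAA and ATTAAA and AGTAAA and TATAAA and AATATA and AATACA and CATAAA and GATAAA and AATGAA and ACTAAA and AAGAAA and AATAGA, read on the strand of the gene, and several can overlap. Among terminal peaks the share was 8 of 11 (72.7%, interval 43.4% to 90.3%) against 78.5%. The 3 terminal peaks without one were the internal FOS peak, JUNB and the proximal IER2 peak. Of the 9 peaks that were not terminal, 3 had one (33.3%, interval 12.1% to 64.6%), against 64.6% of exonic and 49.1% of intronic peaks. The shares over all classes compare unlike mixes, since 55.0% of the 20 peaks but 19.3% of all were terminal.

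A-rich sequence, at least 7 A in the 10 bases downstream of the edge, followed 3 of the 20 peaks (15%, interval 5.24% to 36.0%), against 59.0% of all peaks, 22.8% of terminal, 33.5% of exonic and 71.2% of intronic ones. The 3 were the FOS and ATF3 peaks in exon 3 and the JUN peak at the stop codon. The peaks past FOS and DUSP1 also had it and were the only such peaks more than 600 and up to 4000 bp past the end of the 10 genes, where 25.4% of all detected genes have at least 1 peak. Peaks within another gene of the same strand were left out, for the 10 genes and for the 25.4%.

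**Figure D4:**
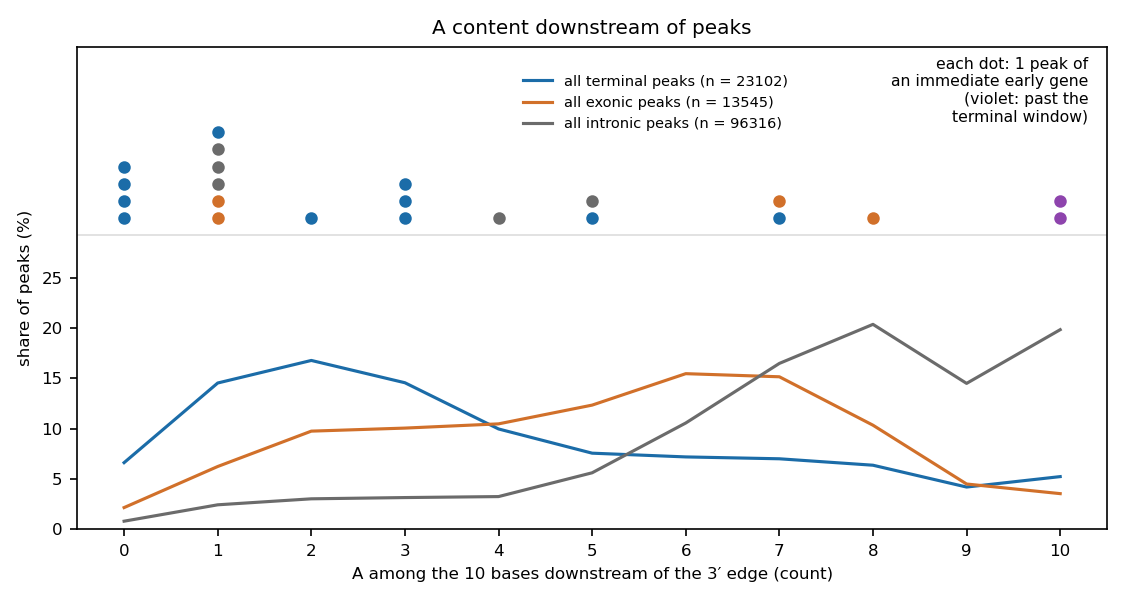
Share of all peaks (lower part, y axis, percent, a line per class) by the number of A among the 10 bases downstream of the 3′ edge (x axis), and above the line a dot for each of the 20 peaks of the immediate early genes and the 2 peaks past their ends, coloured by class. Most dots lie at 0 to 5 A, the FOS, ATF3 and JUN peaks in or beside coding sequence lie at 7 and 8, and both peaks past the genes lie at 10.

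The AU-rich pentamer ATTTA, read on the strand of the gene and with overlaps counted, occurred 0 to 6 times in the canonical 3′ UTRs, with a median of 3 against 2 over 13701 other genes with a terminal peak. MYC had 6, FOS 5, DUSP1 4, FOSB, JUN and ATF3 3, JUNB 2, JUND and EGR1 1 and IER2 0. FOS and DUSP1 stood highest for their UTR length, since only 9.5% and 9% of 200 genes with UTRs of similar length had at least as many. This share was 28% for JUNB, 29.5% for MYC, 40.5% for ATF3 and 51% for JUN. For JUND, FOSB, EGR1 and IER2 it was 64%, 69.5%, 76% and 100%. Of the 10 genes, the nonamer TTATTTATT occurred only in FOS, once, and in DUSP1, in 2 places, and it occurred in 9.58% of the other genes. Its first copy is in capitals in each.
FOS, chr14:75282060-75282088, plus strand: tgtttttaatTTATTTATTaagatggatt
DUSP1, chr5:172768643-172768671, minus strand: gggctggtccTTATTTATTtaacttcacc
The main peak of both genes lay at the distal end, so that the UTR up to its edge holds all of their pentamers.

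Of 42 other immediate early and primary response genes, 36 (85.7%) had a terminal peak, against 68.7% of all protein-coding genes, with a median height of 22 (7 to 65). The 5 highest were GADD45A (65), ID1 (60), ID3 (53), MCL1 (52) and ZFP36L1 (43). HES1 had 2 peaks but none at its end. EGR2 and EGR3, paralogues of EGR1, KLF2, KLF4 and CCN2 had no peak, as MYC. Of all protein-coding genes 22.8% had no peak, and of those between 1830 and 7518 bp long 39.3%. The FOS relatives FOSL1 and FOSL2 had heights of 17 and 26, with 16 at FOS.

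Of 23 AP-1 partners and upstream factors, 22 had a terminal peak, against 68.7% of all protein-coding genes, with a median of 21.5 (7 to 38). MAPK8 (38), SRF (37) and MAPK9 (34) were among the highest, and BATF, a bZIP factor of immune cells, had no peak. These heights lay below those of EGR1 and IER2. They also lay below the 44 of JUND, which falls to 16 with canonical transcripts alone or without models of incomplete 3′ end. All 8 proteins that bind AU-rich elements had a terminal peak, with a median of 35 (19 to 60), led by KHSRP (60), HNRNPD (49), TIAL1 (48), ZFP36L1 (43) and ZFP36L2 (27).

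**Figure D5:**
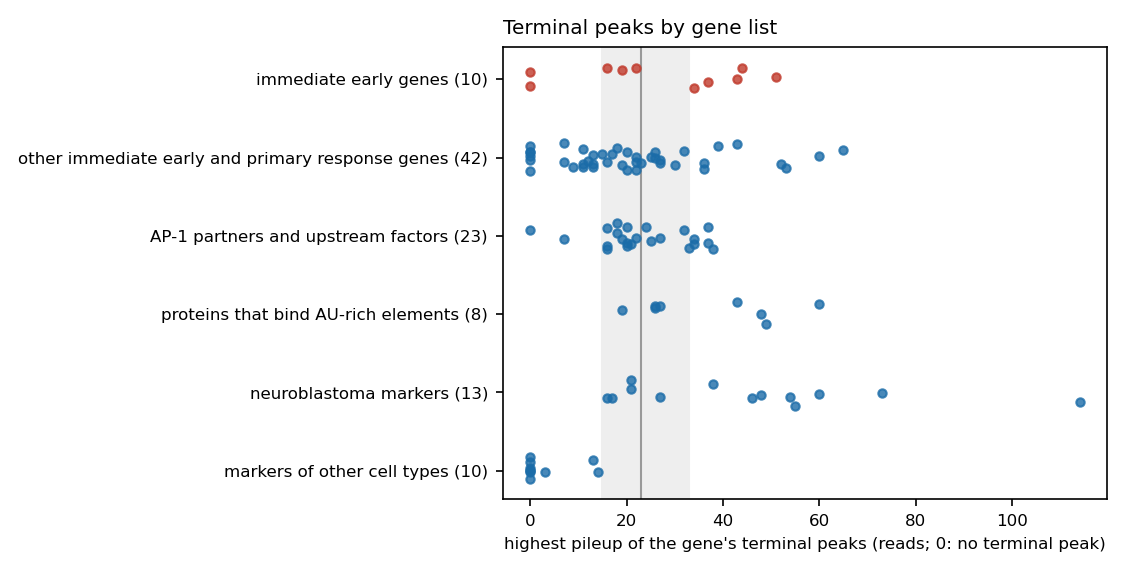
Highest pileup among the terminal peaks of each gene (x axis, reads, 0 where a gene has none) for the immediate early genes (red) and 5 other lists (blue), each dot a gene, spread vertically for visibility. The line and band give the median of 23 and the quartiles of all genes with a terminal peak, and the 8 immediate early genes with a terminal peak span 16 to 51, within the range of the 42 other primary response genes.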

How the data were processed

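The members and lists were chosen with earlier results of these data known. Per the methods and the submitters' processing notes, the authors mapped single-end reads to GRCh38 with STAR 2.5.1b, randomly downsampled the libraries, merged them and called peaks with MACS2 2.1.1, with reads extended to 100 bp. The paper then removed peaks with none of the 12 hexamers within 100 bp upstream but a stretch of 25 A, at most 3 mismatched, downstream. The peak past FOS has no hexamer and such a stretch, so the list appears to precede that step. Shares of all peaks given here include such peaks. For each peak the authors deposited a fold, −log10 p- and q-values, a score and a summit. The fold was read as the ratio of the summit pileup to the local background, with the same constant added to each. It is therefore lower than the plain ratio, most of all where the background is low. The score was not used. No columns held the results of comparisons between groups.

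The pileup was the whole number that gave the deposited p-value from the fold under a Poisson model, with a largest miss of 0.000168, and was tested on simulated data. GENCODE 44 genes of the numbered chromosomes (1 to 22) and of X and Y were used. Similar-length genes were the 200 of nearest body length. The 3′ edge of a peak was its end on the strand of the gene, and motifs were searched there in GRCh38. In wide peaks this edge can lie farther from the summit than an extended read reaches. Motif shares of all peaks leave out 15772 in genes of both strands, while those of the members keep FOSB, JUNB and DUSP1 on their own strand. Wilson intervals cover counting error only. All 10 members were named. Of each of 3 lists, the 5 genes of highest terminal pileup and those without a terminal peak were named, except 2 genes that are not reported here, and FOSL1 and FOSL2 were chosen after their values were seen. Python 3.11.15, numpy 2.4.6, scipy 1.17.1 and pysam 0.24.0 were used. No test was run, since a pooled list holds no replicates. Coverage tracks were not used here.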

Additional observations from a re-analysis of the deposited data

How the results depend on the processing

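No paired analysis was possible because peaks were called on merged libraries, which carry no replicate values, and no replicate could be left out for the same reason. A minimum −log10 q of 20 left 7 of the 20 peaks, 5 of the 8 genes with a terminal peak and neither of the 2 with a peak past the window, with 85.7% of peaks terminal in place of 55.0% and 0% A-rich in place of 15%. Starting from the summit gave 25% with a hexamer in place of 55.0% and 0% A-rich. The A-rich share was 5% with at least 8 A and 0% with a stretch of 25 bases holding at most 3 others. The median percentile of terminal height, 79.2, was 60.6 by fold, 51.0 by summed pileups, 68.5 with canonical transcripts and 61.5 without transcripts of incomplete 3′ end, an alternative chosen after seeing the data. The genes with more peaks than the similar-length median, 3 in the report (FOS, JUN and JUND), were 1 at a −log10 q of 20 (IER2), 1 by spliced length (ATF3) and 5 against all protein-coding genes. The 2 genes with a peak past the window became 4 up to 10000 bp, with FOSB and EGR1 added. The median of 3 ATTTA was 0 for the nonamer. The cause of these shifts was not tested. The other 36 values stayed within 1.5 times the main value for counts, or within its interval or 10 percentile points. Low pileups near 5 limit what can be read from single peaks.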

Other observations

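Up to 10000 bp past the ends, FOSB had peaks 7924, 9016 and 9733 bp downstream with pileups of 10, 15 and 17, all with 1 A in the 10 bases after the edge and no hexamer upstream. EGR1 had a peak 5358 bp past its end with a pileup of 6 and 7 A, and DUSP1 one 5981 bp past with a pileup of 8, 7 A and AATAAA 6 bp upstream. The last lies across a lncRNA of the other strand, ENSG00000253295. Which transcript these distant peaks belong to was not tested.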
